A study of Mus musculus with 12 samples.

Results

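The mitochondrial genome transcripts are the genes that the deposited files place on chrM, all of them with a name starting with mt-. There were 37 of them among 55335 genes: 13 mRNA genes, 2 rRNA genes and 22 tRNA genes. They were followed through 12 RNA-seq libraries of mouse muscle stem cells (MuSCs), the Pax7+ cells from which skeletal muscle regenerates. The cells were sorted by fluorescence from hindlimb muscle of Pax7-ZsGreen mice, aged 3 to 6 months, in which a green reporter marks Pax7-expressing cells. Fresh cells (labelled F) went into lysis reagent at sorting. Day-2 cells (labelled 2d-U) stayed in uncompressed culture for 2 days and day-5 cells (labelled 5d-U) for 5 days, on plastic coated with Matrigel and fibronectin in growth medium with FGF and sera. Compressed cells (labelled 2+3d-C) had 2 such days and then 3 days beneath a film on pillars that left about 4 μm of height. They were lysed after this device was taken off. No genotype or drug differed between the groups, and each had 3 libraries. The sources do not say which libraries came from separate animals or cultures, so the p-values measure only the spread between these libraries.

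Mitochondrial DNA is a small circle, present in many copies per cell, that encodes core subunits of the respiratory chain (complexes I, III and IV) and of ATP synthase (complex V), together with the rRNAs and tRNAs needed to translate them inside the organelle. Both strands are transcribed as long precursors by a polymerase of its own, Polrmt, with the factors Tfam and Tfb2m. The tRNAs are interspersed between the other genes and are cut out of the precursor, which releases the mRNAs and rRNAs. All remaining subunits of these complexes come from the nucleus. In MuSCs, quiescence is associated with low respiratory activity, and activation with growth of the mitochondrial network.

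The cDNA was primed on poly(A) and amplified by PCR (SMART-seq v4), then read as single 75-base reads. A tRNA gene is about as short as a read, and most of the 22 lie directly against other genes. A read that overlapped 2 genes was not counted, and only 4 tRNA genes had any 75-base window that touched them and no other gene. The whole sequences of these 4 are shown because they are the only tRNA genes on which such a window could be counted. mt-Tp, mt-Tn and mt-Tc have 67, 71 and 66 bases, so a 75-base window on them also holds bases outside the gene. Reads were counted without regard to strand, so precursor reads from either strand cannot be told apart from the tRNA. The sequences are from the GENCODE vM21 transcripts (build GRCm38), 5′ to 3′, with the anticodon in capitals.

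mt-Tp (proline tRNA, chrM:15356-15422, minus strand): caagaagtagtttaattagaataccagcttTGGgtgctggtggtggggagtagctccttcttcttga

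mt-Tn (asparagine tRNA, chrM:5089-5159, minus strand): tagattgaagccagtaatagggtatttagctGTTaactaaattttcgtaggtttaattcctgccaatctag

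mt-Tc (cysteine tRNA, chrM:5192-5257, minus strand): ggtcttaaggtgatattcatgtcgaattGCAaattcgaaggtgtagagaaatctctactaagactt

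mt-Tl1 (leucine tRNA, chrM:2676-2750, plus strand): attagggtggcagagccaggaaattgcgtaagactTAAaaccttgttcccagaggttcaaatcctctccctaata

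mt-Tp had 67 such windows, mt-Tn 31, mt-Tc 26 and mt-Tl1 only 1. The other 18 tRNA genes had none. Of those 18, 10 had 0 reads in every library and 8 had at least 1 read somewhere, with a highest count of 25 for mt-Te, the glutamic acid tRNA. All 22 together held 4 to 307 reads per library.

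A second limit on the counts lies in the nuclear genome, which carries copies of mitochondrial DNA. For each mRNA and rRNA gene, all 75-base windows were compared with the annotated nuclear transcripts on either strand. In mt-Co2 and mt-Co3 (subunits 2 and 3 of complex IV), mt-Atp6 (ATP synthase), mt-Nd3 and mt-Nd4l (complex I), 97.8% to 99.9% of the windows also occurred in a nuclear pseudogene, in an array of 7 that spans bases 24611535 to 24616197 of chromosome 1 (GRCm38). The copies are close to exact. Gm28437 matched 783 of the 784 bases of mt-Co3 with 0 mismatches, Gm28661 matched 681 bases of mt-Co2 with 0 mismatches, and Gm28438 differed from mt-Nd3 only by T3C over 345 bases, with positions counted from 1 at the 5′ end of the mitochondrial gene. For mt-Nd4 the copy Gm28439 held bases 1 to 876 of 1378, which left 502 windows unshared, and 61.5% were shared. In mt-Co1 39.8% were shared, in mt-Nd2 5.71%, in mt-Nd5 1.66%, and in mt-Nd1, mt-Nd6, mt-Cytb and both rRNA genes 0%.

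Windows at 3 of these places show what a read could and could not distinguish. The first is a window of mt-Co3 that Gm28437 holds letter for letter. The second crosses the end of the copy of mt-Nd4, with the bases past that end in capitals. The last pair is mt-Co1 and its copy Gm29216 at the start of the copy, with the differing bases in capitals. The substitutions there are T1056A, C1057T, A1059G, A1060G, C1062A and A1066T, and over the 492 aligned bases there were no others.

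mt-Co3 and Gm28437 (chrM:8907-8981, plus strand): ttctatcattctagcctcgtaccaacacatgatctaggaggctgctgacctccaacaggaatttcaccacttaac

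mt-Nd4 (chrM:11005-11079, plus strand): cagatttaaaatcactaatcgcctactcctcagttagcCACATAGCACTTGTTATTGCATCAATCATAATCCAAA

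mt-Co1 (chrM:6381-6455, plus strand): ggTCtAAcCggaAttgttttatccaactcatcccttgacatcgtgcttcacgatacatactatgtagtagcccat

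Gm29216 (chr1:24616123-24616197, minus strand): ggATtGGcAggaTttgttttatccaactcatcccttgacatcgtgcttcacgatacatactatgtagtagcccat

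The read counts split along the same line. The 6 mRNA genes mt-Co2, mt-Co3, mt-Atp6, mt-Atp8, mt-Nd3 and mt-Nd4l never exceeded 258 reads in a library and together held at most 0.104% of the reads on mRNA genes. The exception to the match with shared windows was mt-Atp8, a short ATP synthase gene with 0 to 3 reads and 0% of its windows in an annotated transcript. It lies between mt-Co2 and mt-Atp6, shares 43 bases with mt-Atp6, and the chromosome 1 array has annotated copies of both neighbours with a gap between them. The 12 pseudogenes aligned to a mitochondrial gene held 15 to 882 reads per library in all. The counts of these 6 genes are not read as levels here. Whether reads that matched 2 places were lost from them was not tested.

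**Figure D1:**
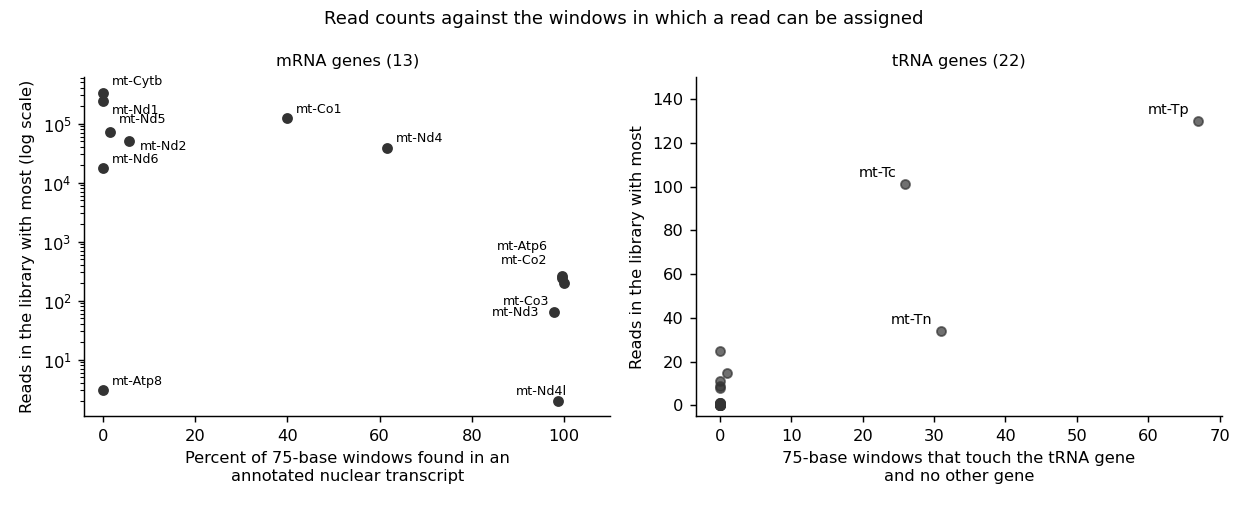
Reads in the library with most reads, for each of the 13 mRNA genes against the percent of their 75-base windows found in an annotated nuclear transcript (left, log scale), and for each of the 22 tRNA genes against the number of windows that touch no other gene (right). The mRNA genes with at least 97.8% of shared windows, and mt-Atp8 with 0%, stay at or below 258 reads, whereas each other mRNA gene reaches at least 17629. Among tRNA genes mt-Tp, mt-Tc and mt-Tn have the most reads.

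The 9 remaining genes had at least 171 reads in every library and carry the results. They are the 2 rRNA genes mt-Rnr1 (12S rRNA, chrM bases 70 to 1024) and mt-Rnr2 (16S rRNA, 1094 to 2675), the complex I genes mt-Nd1 (2751 to 3707), mt-Nd2 (3914 to 4951), mt-Nd4 (10167 to 11544), mt-Nd5 (11742 to 13565) and mt-Nd6 (13552 to 14070), the complex IV gene mt-Co1 (5328 to 6872) and the complex III gene mt-Cytb (14145 to 15288). Of these only mt-Nd6 lies on the minus strand. The split at 100 reads in every library was chosen after the counts were seen.

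Gene counts summed to 12540745 in the shallowest library and to 62424851 in the deepest. Some libraries stood apart. Replicate 1 of day-5 cells held 13 reads of Myog, a factor of differentiating myoblasts, against 25122 and 33864 in replicates 2 and 6. Replicate 4 of fresh cells held 10737 Myog reads, against 32 and 198 in replicates 1 and 5. Day-2 libraries held 18 to 172 Myog reads and compressed libraries 0 or 1. Reads on autosomal genes of families silent in most tissues, such as olfactory receptors, reached 3.81 and 0.634 per kb in replicates 1 and 6 of day-5 cells and 5.03 and 7.13 in replicates 4 and 5 of fresh cells, with 0.00936 to 0.22 in the other 8 libraries. The MuSC marker Pax7 was present in every group, at 10.8 to 21.1 CPM (reads scaled to a fixed library total) in fresh cells, 37.6 to 44.6 in day-2 cells, 14 to 36.9 in day-5 cells and 56.5 to 72.1 in compressed cells. Markers of other cells were also present in fresh cells, with summed levels of 789 to 1314 CPM for 5 endothelial genes and 34.4 to 3256 CPM for 10 genes of mature myofibers, which are rich in mitochondria. In day-2 cells against fresh cells all 10 of the myofiber genes and all 5 of the endothelial genes were called lower, as were 33.3% of all tested genes. All 5 immune, all 5 erythroid and 4 of 5 fibroadipogenic genes were lower as well. In a day-2 library 5 or 6 of the myofiber genes had at most 3 reads. The endothelial sum was 3.39 to 6.94 CPM in day-2 cells, 2.01 to 29 in day-5 cells and 51.2 to 170 in compressed cells, and the myofiber sum 63.6 to 115, 179 to 1781 and 63.1 to 132. Sums for 5 fibroadipogenic, 5 immune and 5 erythroid genes were 2270 to 7215, 185 to 321 and 193 to 658 CPM in fresh cells, against 369 to 494, 0.255 to 5.53 and 25.5 to 210 CPM in compressed cells. The same sums were 252 to 302, 5.16 to 16.5 and 0.148 to 0.248 CPM in day-2 cells, and 11.2 to 209, 16.3 to 36.8 and 0.102 to 0.261 CPM in day-5 cells. Of the 5 erythroid genes 3 to 5 were at or under 3 reads in each library of uncompressed culture. The sum for 9 MuSC and myogenic genes was 3656 to 6595 CPM in fresh cells, 3268 to 3636 in day-2, 2376 to 3738 in day-5 and 11971 to 14715 in compressed cells. Of the 9, 3 were called lower and 1 higher in day-2 cells against fresh cells (33.3% and 10.6% of all tested genes). The 9 include Myod1, whose protein the study used to mark progenitors and committed cells. Myod1 was at 666 to 1287 CPM in fresh cells and 1342 to 1621 in day-2 cells. It was at 1234 to 1722 CPM in day-5 cells and 3875 to 5587 in compressed cells. The part of cells of other types in the results was not tested. In bulk libraries, a change in the number of cells of a type and a change in the RNA per cell cannot be told apart.

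Mitochondrial genes took a small and very variable share of the counted reads. Reads that match more than 1 place are not kept. The 6 mRNA genes not read as levels hold at most 0.104% of the reads on mRNA genes. The shares are therefore not the mitochondrial content of the libraries. In fresh cells the share was 1.15%, 0.493% and 0.797% in replicates 1, 4 and 5. In day-2 cells it was 0.0863%, 0.162% and 0.0681% in replicates 1, 2 and 3. In day-5 cells it was 5.85%, 0.578% and 0.962% in replicates 1, 2 and 6, and in compressed cells 0.243%, 0.351% and 0.553% in replicates 4, 5 and 10. All day-2 libraries lay below all libraries of the other groups. The compressed libraries lay above all day-2 libraries, overlapped the lower end of fresh cells and lay below all day-5 libraries, replicate 10 by little. Replicate 1 of day-5 cells held more than 5 times the share of any other library. The group means were 0.812% ± 0.327 in fresh cells, 0.105% ± 0.0495 in day-2 cells, 2.46% ± 2.94 in day-5 cells and 0.383% ± 0.157 in compressed cells (SD, n = 3 each). The SD in day-5 cells exceeds its mean, and there the median of 0.962% describes the group better.

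**Figure D2:**
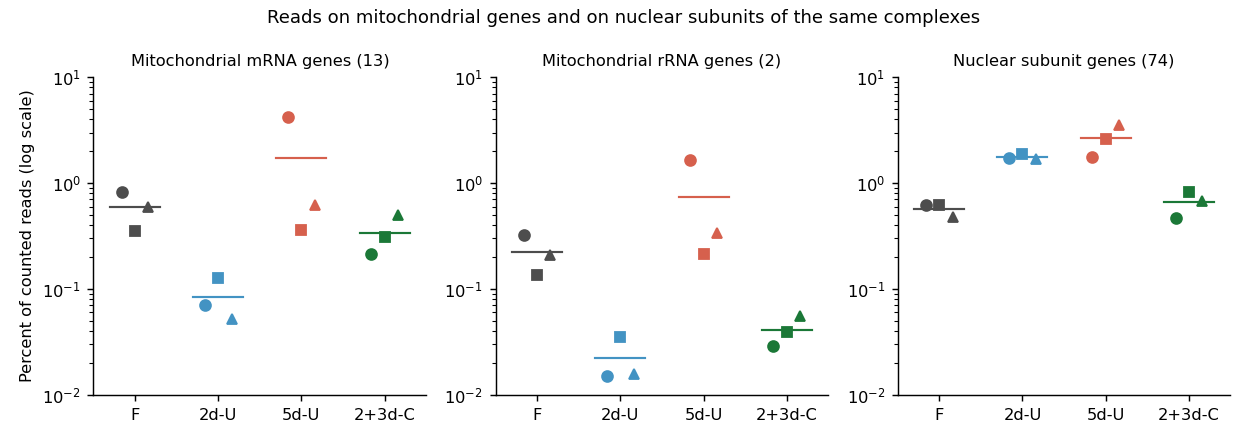
Percent of counted reads per library (log scale) on the 13 mitochondrial mRNA genes, the 2 mitochondrial rRNA genes and the 74 nuclear genes for subunits of complexes I, III, IV and V, by group, with the study's group labels on the axis. Circle, square and triangle are the replicates of a group in the order of their numbers, and lines are group means. The day-2 libraries are lowest for mitochondrial genes (0.0522% to 0.126% on mRNA genes) but not for nuclear subunit genes.

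Levels of the 9 genes are given as RPKM, so that genes of different length can be set side by side. RPKM is reads per kb of gene, scaled to a library size multiplied by its TMM factor (0.661 to 1.26). CPM has no such factor. mt-Cytb, the cytochrome b of complex III, was at 2172, 705 and 1278 RPKM in fresh cells, 151, 250 and 95.2 in day-2 cells, 12732, 1073 and 4343 in day-5 cells, and 688, 1380 and 1716 in compressed cells, always with the replicates in the order of their numbers. mt-Nd1, a membrane subunit of complex I, was at 1722, 475 and 860 RPKM in fresh cells, 242, 430 and 175 in day-2 cells, 10959, 1334 and 2624 in day-5 cells, and 456, 996 and 1056 in compressed cells. For both genes day-2 cells lay below every other library, and replicate 1 of day-5 cells far above. mt-Rnr2, the rRNA of the large mitochondrial ribosomal subunit, was at 1954, 686 and 1023 RPKM in fresh cells, 77.2, 169 and 77.5 in day-2 cells, 9198, 1296 and 3047 in day-5 cells, and 204, 359 and 349 in compressed cells. mt-Rnr1, the rRNA of the small subunit, was at 208, 52.3 and 112 RPKM in fresh cells, 5.99, 13.6 and 5.1 in day-2 cells, 435, 155 and 183 in day-5 cells, and 17.3, 21.6 and 45.7 in compressed cells. For both rRNAs the 4 groups formed steps without overlap from day-2 cells through compressed cells to the other 2 groups, and fresh cells and day-5 cells overlapped.

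By RPKM, mt-Cytb, mt-Nd1, mt-Rnr2 and mt-Co1 led in that order of median rank over the 12 libraries, and mt-Rnr1 came last. The order was not fixed: mt-Cytb ranked from 1 to 3, mt-Rnr2 from 2 to 6 and mt-Nd5 from 5 to 9. mt-Co1, the catalytic subunit of complex IV, was at 598 to 1195 RPKM in fresh cells, 49.9 to 95.9 in day-2 cells, 396 to 3493 in day-5 cells and 364 to 740 in compressed cells. The complex I genes mt-Nd2, mt-Nd4, mt-Nd5 and mt-Nd6 lay below these in every library except replicate 10 of compressed cells, where mt-Nd4 (396 RPKM) and mt-Nd6 (360 RPKM) lay above mt-Rnr2, with group medians of 205 to 338 RPKM in fresh cells, 19.6 to 28.6 in day-2 cells, 139 to 296 in day-5 cells and 191 to 249 in compressed cells. Their ranges overlapped one another in every group, but within single libraries some orders recurred. Every day-2 library had the order mt-Nd2, mt-Nd4, mt-Nd6 and mt-Nd5. Of these genes mt-Nd2 was highest in every day-5 library, whereas mt-Nd4 lay above mt-Nd2 in every compressed library. No single order of them held over all 12 libraries. RPKM divides by the whole gene, although 61.5% of the windows of mt-Nd4 and 39.8% of those of mt-Co1 are shared with nuclear copies and reads that match more than 1 place are not kept, so the order between genes holds only for these counts. Across the 9 genes, replicate 1 of day-5 cells exceeded the higher of the other day-5 libraries by 2.37-fold in mt-Rnr1 to 12.2-fold in mt-Nd5.

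**Figure D3:**
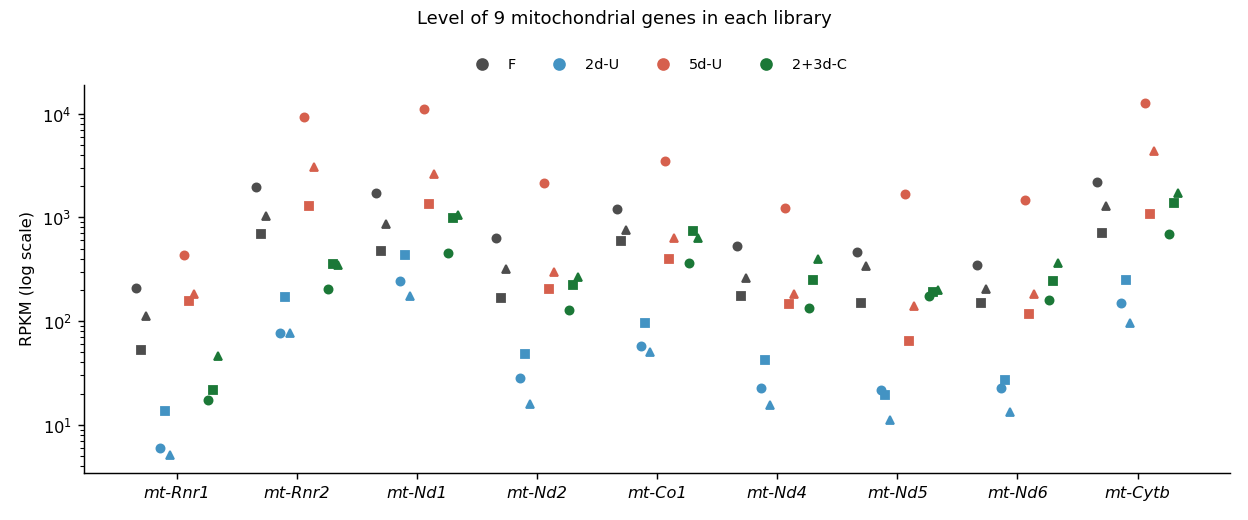
RPKM (log scale) of the 9 mitochondrial genes with at least 100 reads in every library, one point per library, with groups, under the study's labels, in the order fresh cells, day-2 cells, day-5 cells and compressed cells from left to right within a gene; circle, square and triangle are the replicates in the order of their numbers. The day-2 points lie lowest for every gene, and 1 circle of day-5 cells (replicate 1) is highest for every gene.

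The tests were fitted over all 22635 genes that passed a filter on low counts, with edgeR's quasi-likelihood test and Benjamini-Hochberg adjustment. An adjusted p under 0.05 made a call. Of the 37 mitochondrial genes 15 passed the filter: both rRNA genes, 10 mRNA genes and the tRNA genes mt-Tn, mt-Tc and mt-Tp. Counts of calls refer to the mRNA and rRNA genes unless stated. The comparisons share groups and are not independent of each other. Overlap of groups was not counted over all tested genes. A lack of overlap is therefore not read as particular to the genes named.

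The comparison of day-2 with fresh cells asks what changes between sorting and day 2 of culture. All 9 well-counted genes fell. mt-Nd5, a membrane subunit of complex I, fell by 4.19 on the log2 scale (standard error 0.961, adjusted p = 0.00522 from edgeR), mt-Rnr1 by 3.92 (0.669, 0.000858), mt-Co1 by 3.65 (0.725, 0.00221) and mt-Cytb by 3.07 (0.756, 0.00774). The smallest fall was that of mt-Nd1, 1.85 (standard error 0.709, adjusted p = 0.0474), which did not hold in 5 of 6 fits with 1 library of these groups left out, where its adjusted p reached 0.138. For each of the 9, all day-2 libraries lay below all fresh libraries. Among all tested genes 33.3% were lower and 10.6% higher in this comparison, and the median log2 fold change over them was -1.63, against -3.59 over the 9 genes. Of the tRNA genes mt-Tp and mt-Tc were also called lower, from 91, 13 and 37 reads of mt-Tp in fresh cells to 4, 2 and 1 in day-2 cells, and from 39, 11 and 18 reads of mt-Tc to 0, 1 and 1 (edgeR's adjusted p = 0.0201 and 0.021). A fold against so few reads depends on the fit and is not given.

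Between day-2 and day-5 cells the comparison sets day 5 against day 2 of uncompressed culture. All 9 genes rose, by 4.14 for mt-Nd1 (standard error 0.78, adjusted p = 0.0207) to 5.39 for mt-Rnr2 (0.749, 0.00765) on the log2 scale. For each, every day-5 library lay above every day-2 library. Only 1.87% of all tested genes were called higher in this comparison and 0.243% lower, and the median log2 fold change over all was 1.13. Without replicate 1 of day-5 cells all 9 were still called, with log2 fold changes of 2.54 (mt-Nd5) to 4.37 (mt-Rnr1). With a model term for the 4 libraries with reads on silent families only the 2 rRNA genes were called, while the log2 fold changes of all 9 stayed between 4.06 and 5.25.

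The comparison of compressed with day-2 cells refers to the stage at which compression began. 7 genes rose and none fell: mt-Nd6 by 3.61 on the log2 scale (standard error 0.819, adjusted p = 0.00574), mt-Nd5 by 3.43 (0.928, 0.0154), mt-Nd4 by 3.27 (0.798, 0.00873), mt-Co1 by 3.10 (0.707, 0.00586), mt-Cytb by 2.93 (0.751, 0.0116), mt-Nd2 by 2.74 (0.808, 0.0236) and mt-Rnr1 by 1.78 (0.615, 0.0468). mt-Nd1 and mt-Rnr2 had log2 fold changes of 1.57 (adjusted p = 0.116) and 1.49 (adjusted p = 0.0985) and were not called, although every compressed library lay above every day-2 library for all 9 genes. Of all tested genes 16.0% were higher and 8.63% lower, with a median log2 fold change of 0. That split depends on scaling: 3619 genes were higher and 1954 lower with TMM, and 2540 higher and 3143 lower by library size alone, where 5 mitochondrial genes were called, all higher.

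The effect of compression is addressed by compressed against day-5 cells, since both were cultured for the same number of days. 4 genes were lower and none higher. mt-Rnr2 had a log2 fold change of -3.89 (standard error 0.698, adjusted p = 0.00135), mt-Rnr1 of -3.19 (0.647, 0.00298), mt-Nd1 of -2.57 (0.728, 0.0206) and mt-Cytb of -2.26 (0.731, 0.0384). Of all tested genes 13.4% were lower and 9.14% higher, and their median log2 fold change was -1.05. The other 5 genes were not called, with log2 fold changes of -2.10 (mt-Nd2), -1.75 (mt-Nd5), -1.38 (mt-Co1), -1.22 (mt-Nd6) and, for mt-Nd4, nearer to 0 (adjusted p = 0.294). Only for mt-Rnr1, mt-Rnr2 and mt-Nd1 did the libraries of the 2 groups not overlap. Replicate 1 of day-5 cells carried much of this comparison. Without it, the rRNAs alone were called, with log2 fold changes of -2.60 (mt-Rnr1, adjusted p = 0.00601) and -2.85 (mt-Rnr2, adjusted p = 0.00109). mt-Nd1 was then at -1.26 and mt-Cytb at -1.12, while mt-Co1, mt-Nd4, mt-Nd5 and mt-Nd6 turned to 0.16, 0.65, 0.88 and 0.76, none of them called. 2 genes were also called without replicate 4 of compressed cells and with the silent-family term, and 7 without replicate 2 of day-5 cells.

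A further question is how compressed cells compared with cells straight from muscle. edgeR called 0 mitochondrial genes, with 2 at an unadjusted p under 0.05, and DESeq2 called 2 lower. In both tools these were the rRNA genes, mt-Rnr1 at a log2 fold change of -2.14 (standard error 0.62, adjusted p = 0.053) and mt-Rnr2 at -2.01 (0.645, 0.0709), with all compressed libraries below all fresh libraries for both. The 7 mRNA genes had log2 fold changes of -0.86 (mt-Nd2) to 0.12 (mt-Nd6) with standard errors of 0.654 to 0.848, and overlapping libraries. A 2-fold change is 1 on this scale and close to those errors. The background of all tested genes was 1.94% higher and 4.47% lower, with a median log2 fold change of -0.76. Without TMM that split moved from 438 higher and 1011 lower to 145 higher and 1209 lower.

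For day-5 against fresh cells edgeR gave 1 call, mt-Nd1, higher by 2.29 (standard error 0.72, adjusted p = 0.0352), with overlapping libraries. Of all tested genes 11.6% were higher and 8.90% lower, and DESeq2 split all genes as 2785 higher and 3908 lower where edgeR gave 2629 and 2014. mt-Rnr2 at 1.89 (adjusted p = 0.0506) and mt-Cytb at 2.13 (adjusted p = 0.0519) just missed the threshold. Without replicate 1 of day-5 cells no gene was called higher and mt-Nd5 was called lower, at -1.63 (adjusted p = 0.0495). Without any 1 of the fresh libraries no gene was called, and 3 were called higher without any 1 of the day-2 or compressed libraries or replicate 2 of day-5 cells.

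**Figure D4:**
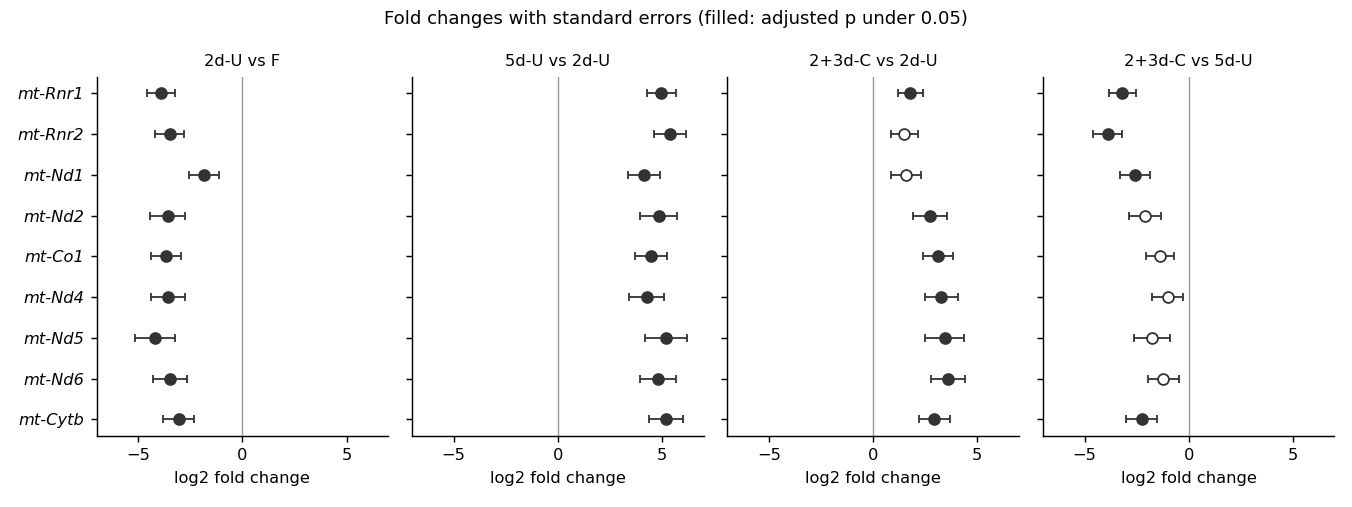
log2 fold changes of the 9 well-counted genes in 4 comparisons; points are edgeR estimates, bars standard errors, and filled points have an adjusted p under 0.05. All 9 are filled in day-2 cells against fresh cells (below 0) and in day-5 cells against day-2 cells (above 0), 7 in compressed cells against day-2 cells, and 4 in compressed cells against day-5 cells, where the rRNAs are farthest below 0.

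The balance between the rRNA genes and the mRNA genes varied between groups. It can be read within the mitochondrial reads alone, and was described without a test. Almost none of these reads lie on the 6 mRNA genes not read as levels, so the percentages hold only for counted reads. The rRNA genes took 28.1%, 27.8% and 26.1% of mitochondrial reads in the fresh libraries, 17.4%, 21.9% and 23.3% in day-2 cells, 28.1%, 37.2% and 34.8% in day-5 cells, and 11.9%, 11.1% and 10% in compressed cells. The compressed libraries lay below all other 9 libraries and within 2 percentage points of each other, and replicate 1 of day-5 cells was here at the level of fresh cells. The means were 27.3% ± 1.05 in fresh cells, 20.9% ± 3.07 in day-2 cells, 33.4% ± 4.71 in day-5 cells and 11% ± 0.946 in compressed cells (SD, n = 3 each). Per base of gene, mt-Rnr2 had 0.203 to 0.297 times the reads of mt-Cytb in compressed cells, against 0.512 to 1.21 times in the other libraries. Within the rRNAs, mt-Rnr2 had 7.64 to 21.2 times the reads of mt-Rnr1 per base, with overlap between all groups. The 2 lie on the same strand, separated by the tRNA gene mt-Tv. Mitochondrial rRNAs carry short A tails, and their part in a poly(A)-primed library need not equal their part in the cell.

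Among the mRNA genes the composition of the counted reads varied as well. mt-Nd1 made up 19.6%, 15.4% and 16.9% of the reads on mRNA genes in fresh cells, 38.3%, 41% and 40% in day-2 cells, 27.4%, 34.4% and 26.8% in day-5 cells, and 17.4%, 20.2% and 19% in compressed cells. Fresh cells and compressed cells overlapped, day-5 cells lay above both and day-2 cells above all. mt-Nd2, the next mRNA gene on the same strand and also of complex I, had another pattern. Per base, mt-Nd1 exceeded mt-Nd2 by 2.72 to 2.85 times in fresh cells, 3.6 to 4.49 in compressed cells, 5.12 to 8.85 in day-5 cells and 8.48 to 11 in day-2 cells. This ratio separated fresh cells, compressed cells and the pair of uncompressed cultures without overlap, and included replicate 1 of day-5 cells, at 5.12, on the side of its group. mt-Nd2 itself took 5.86% to 7.8% of mRNA gene reads in fresh cells and 3.28% to 5.81% in the other groups. mt-Co1 made up 22% to 31.3% of mRNA gene reads in fresh cells, 18.5% to 24.2% in compressed cells, 14.5% to 18.4% in day-2 cells and 10.5% to 16.5% in day-5 cells. mt-Cytb took 26% to 30% in fresh cells and day-2 cells, 31.4% to 36.8% in compressed cells and 33.1% to 53% in day-5 cells.

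The light-strand gene mt-Nd6 can be set against mt-Cytb, which lies beside it on the other strand. Per base, mt-Cytb had 4.32 to 5.65 times the reads of mt-Nd6 in compressed cells, 4.67 to 6.3 in fresh cells, 6.7 to 9.25 in day-2 cells and 8.63 to 24 in day-5 cells. The compressed and fresh libraries lay below the uncompressed cultures, with overlap between day-2 cells and day-5 cells. Reads were counted without regard to strand, so reads of the precursor from the opposite strand would count towards mt-Nd6 and cannot be told apart from its mRNA.

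**Figure D5:**
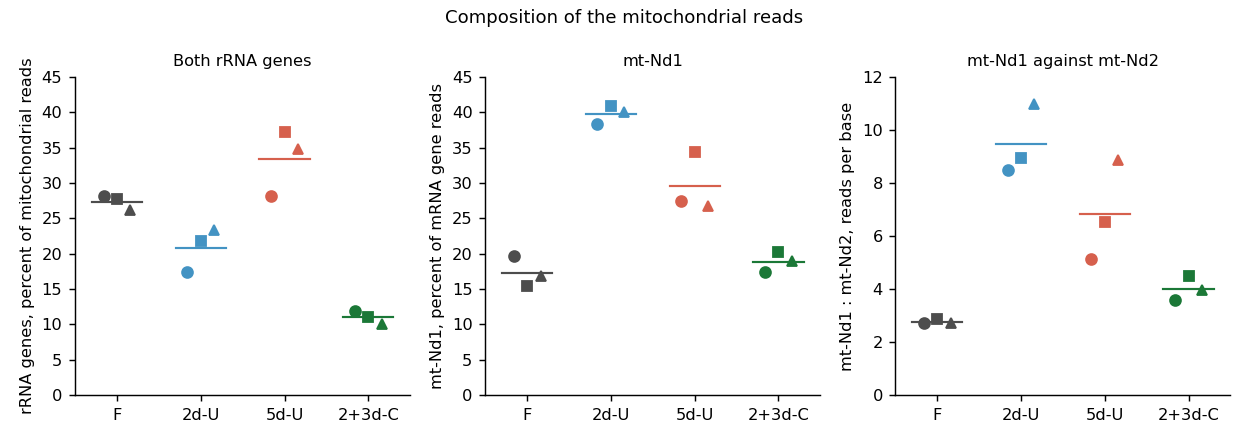
Composition within the mitochondrial reads by library: the share of both rRNA genes in all mitochondrial reads (left, percent), the share of mt-Nd1 in reads on mRNA genes (middle, percent), and the ratio of mt-Nd1 to mt-Nd2 in reads per base of gene (right). Symbols are the replicates in the order of their numbers and lines the group means. The compressed libraries hold 10% to 11.9% of rRNA reads, below every other library, and in mt-Nd1 they lie with fresh cells.

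tRNA genes were too thinly read for more than counts. mt-Tp had 91, 13 and 37 reads in fresh cells, 4, 2 and 1 in day-2 cells, 130, 32 and 46 in day-5 cells and 9, 6 and 3 in compressed cells. mt-Tc had 101, 27 and 28 reads in day-5 cells and 5, 1 and 5 in compressed cells, and mt-Tn 34, 17 and 6 against 1, 0 and 3. mt-Te and mt-Tl1 had at most 25 and 15 reads. In compressed cells against day-5 cells none of the 3 tested was called (adjusted p = 0.0911 for mt-Tp, 0.0665 for mt-Tc and 0.107 for mt-Tn). A count of 0 allows up to 3 reads, 0.0481 CPM in the deepest library and 0.239 CPM in the shallowest, which covers counting error only, as do all such limits on PCR reads without molecular identifiers.

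The nuclear partners of these genes followed another course in some comparisons only. Their calls were mostly opposite in direction in day-2 cells against fresh cells and in compressed cells against day-2 cells. In compressed cells against day-5 cells the calls of both sets were all lower. The mitochondrial calls there were mt-Rnr1, mt-Rnr2, mt-Nd1 and mt-Cytb, and only the rRNAs were called without replicate 1 of day-5 cells. In day-5 cells against day-2 or fresh cells the calls of both sets were all higher. Against fresh cells the mitochondrial call was mt-Nd1 alone. Without replicate 1 of day-5 cells it was mt-Nd5 alone, and lower. Of 75 listed nuclear subunit genes of complexes I, III, IV and V, 74 were found and tested. In day-2 cells against fresh cells, where all 9 mitochondrial genes fell, 45 of the 74 were higher and 3 lower (10.6% and 33.3% of all tested genes), with a median log2 fold change of 1.59 against -1.63 over all tested genes. By complex, 26 of 36 were higher in complex I, 7 of 9 in III, 4 of 15 in IV and 8 of 14 in V. The 3 lower genes were Cox4i2, Cox6a2 and Cox8b of complex IV, isoforms of lung or of heart and skeletal muscle that are named here after their values were seen, and Cox6a2 is also 1 of the 10 myofiber genes. In reads, the 74 genes took 0.477% to 0.62% of the total in fresh cells and 1.69% to 1.89% in day-2 cells. Per read on mitochondrial mRNA genes there were 0.753 to 1.74 reads on nuclear subunit genes in fresh cells and 15 to 32.4 in day-2 cells. This ratio holds only for counted reads, of which the 6 mitochondrial mRNA genes not read as levels have almost none. The count of higher genes was 8 without replicate 5 of fresh cells, and 20 to 29 without replicate 4 of fresh cells or 1 of the day-2 libraries.

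In day-5 cells against fresh cells 69 of the 74 nuclear subunit genes were higher and none lower (63 to 69 higher with 1 library left out, and 11.6% of all tested genes higher), with a median log2 fold change of 2.99 against -0.41 over all tested genes. In day-5 cells against day-2 cells only 2 were called, both higher, where 1.87% of all tested genes were (Cox8b and, at a log2 fold change of 3.35, Atp5g3 of complex V), although 56 had an unadjusted p under 0.05. The calls were 17 without replicate 1 of day-5 cells.

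In compressed cells against day-5 cells 65 of the 74 were lower and none higher (13.4% and 9.14% of all tested genes), with a median log2 fold change of -2.64 against -1.05 over all tested genes. These were 34 of 36 in complex I, 8 of 9 in III, 11 of 15 in IV and 12 of 14 in V. The count was 42 without replicate 6 of day-5 cells. Ndufs6, an accessory subunit of complex I, was at 90.3, 125 and 347 RPKM in day-5 cells and at 6.13, 16 and 15.4 in compressed cells, a log2 fold change of -3.91 (standard error 0.588, adjusted p = 0.000392). Ndufa3, another accessory subunit, was at -3.61 (0.552, 0.000445), and Atp5k, a small subunit of ATP synthase, at -4.54 (0.738, 0.000706). For all 3 the groups did not overlap, and replicate 1 was the lowest day-5 library, whereas it was the highest for mitochondrial genes. Against day-2 cells, 15 were lower and 2 higher (Cox4i2 and Cox8b, both at 0 RPKM in all day-2 libraries) in compressed cells, against 8.63% and 16.0% of all tested genes, while 7 mitochondrial genes were higher, and this count ran from 3 lower without replicate 2 of day-2 cells or replicate 4 of compressed cells to 33 without replicate 5 of compressed cells, and was 54 lower by library size alone. Against fresh cells, 1 of 74 was called, where 4.47% of all tested genes were lower: Cox6a2, at 1.1, 15 and 11.2 CPM in fresh cells and 0.224, 0.0797 and 0 CPM in compressed cells (edgeR's adjusted p = 0.0462). The 74 genes took 0.468% to 0.829% of reads in compressed cells, overlapping fresh cells, and 1.77% to 3.53% in day-5 cells.

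The nuclear genes of mitochondrial gene expression were listed as 55 genes, of which 54 were tested. Slirp, an RNA-binding partner of Lrpprc, was not, with 0 to 0.18 RPKM in every library. In compressed cells against day-5 cells 2 were higher, Polg (the mitochondrial DNA polymerase) and Pprc1, and 19 lower, against 9.14% higher and 13.4% lower among all tested genes, with a median log2 fold change of -1.22 against -1.05 over all tested genes. Among the 9 translation factors 7 were lower, with a median of -2.14 over the 9, and among the 22 tested genes of RNA processing 6 were lower. Polrmt, Tfam and Tfb2m were not called. Polrmt, the mitochondrial RNA polymerase, was at a log2 fold change of -0.06 (adjusted p = 0.947). Tfam, which packs mitochondrial DNA and starts its transcription, was at 0.59 (adjusted p = 0.356), and Tfb2m, a transcription initiation factor, at 0.78 (adjusted p = 0.17). Lrpprc, which stabilises mitochondrial mRNAs, was at -0.56 (adjusted p = 0.418). Of the 10 transcription genes Tefm, the elongation factor, was lower at -2.73 (adjusted p = 0.00912), as was Tfb1m, a methyltransferase of 12S rRNA, at -3.36 (adjusted p = 0.0151). The 2 are named after their values were seen.

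Among other members, Gtpbp3, an enzyme that modifies mitochondrial tRNAs, was at 5.9, 7.7 and 6.4 RPKM in day-5 cells, 8.51, 7.6 and 4.65 in day-2 cells and 0.16, 0.06 and 0 in compressed cells, with a log2 fold change of -6.34 against day-5 cells (standard error 0.988, adjusted p = 0.000508). Ptcd2, an RNA-binding protein linked to the processing of mt-Cytb transcripts, fell by 2.95 on the log2 scale (0.493, 0.000862), from 57.3 to 70.9 RPKM in day-5 cells to 6.27 to 12.1. Rexo2, an exonuclease of short RNAs, fell by 1.89 (0.525, 0.0188). Trmt10c, a subunit of the enzyme that cuts tRNAs at their 5′ end, was at 62.2 to 156 RPKM in compressed cells and 39.8 to 57.4 in day-5 cells, without a call at a log2 fold change of 1.14 (adjusted p = 0.0704). Against day-2 cells 18 of the 54 were lower in compressed cells and 1 higher, where 8.63% of all tested genes were lower and 16.0% higher. The higher gene was Trmt10c, by 1.31 (0.439, 0.0414). That call did not hold by library size alone, without replicate 4 of fresh cells, without replicate 4 of compressed cells or without any 1 of the day-2 or day-5 libraries. The lower calls were 11 or 12 without any 1 of the day-2 libraries and 23 by library size alone.

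Of the coactivators that raise nuclear genes for mitochondria, Ppargc1b was at 1.69 to 2.88 RPKM in day-5 cells and 0 in all 3 compressed libraries, and was called lower (adjusted p = 0.000161). Its relative Pprc1 was higher in compressed cells by 3.28 (0.661, 0.00287), at 66.4, 11.3 and 46.7 RPKM against 7.81, 2.15 and 2.81 in day-5 cells. Ppargc1a was read at no more than 1.42 RPKM anywhere and was not called against day-5 cells (adjusted p = 0.119).

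In day-2 cells against fresh cells 24 of the 54 genes were higher and none lower, where 10.6% of all tested genes were higher and 33.3% lower, and the median log2 fold change over the 54 was 1.62. Among the 24 were Ptcd2 at 2.50, Rexo2 at 1.80 and Gtpbp3 at 2.65. Without replicate 5 of fresh cells the count was 13. In day-5 cells against day-2 cells edgeR called 0 of the 54, with 4 at an unadjusted p under 0.05, in a comparison in which 1.87% of all tested genes were higher and 0.243% lower. A count of 0 in 54 is near that background. In day-5 cells against fresh cells 20 were higher and 1, Pprc1, lower, against 11.6% and 8.90% of all tested genes. In compressed cells against fresh cells 2 of the 54 were higher and 3 lower, near the 1.94% and 4.47% of all tested genes, and with replicate 4 or 5 of fresh cells left out 1 was called, lower. The 2 higher ones were Trmt10c at 1.78 (0.445, 0.0332) and Fastkd3, an RNA-binding protein, at 1.83 (0.444, 0.0305). The 3 lower ones were Gtpbp3 at -3.74 (0.888, 0.0284), Ppargc1b, and Mtrf1, a release factor, which was at 1.18, 5.49 and 2.47 CPM in fresh cells and 0, 0 and 0.255 CPM in compressed cells (edgeR's adjusted p = 0.0322), where a fold would depend on the fit.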

How the data were processed

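The 12 libraries hold RNA-seq read counts per gene. Per the labels and the study's methods, the authors mapped 75-base reads to mm10 in an nf-core workflow and made the deposited counts with featureCounts 1.6.4 from GENCODE vM23 exons, ignoring strand. The counts are raw. The options in the file headers keep neither reads that map to several places nor reads on 2 genes. The merged table held the same counts as the 12 single files.

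Libraries were grouped by their labels. In R 4.3.3, edgeR 4.0.16 was run with filterByExpr, TMM scaling and 1 quasi-likelihood fit of the 4 group means over all 12 libraries, with two-sided tests and Benjamini-Hochberg adjustment over 22635 genes. The standard error is the absolute log2 fold change divided by the square root of the test statistic. RPKM used TMM-scaled library sizes and the gene lengths of the files, and shares and CPM used all counted reads. Shares, ratios and lists got no test. Windows were compared with GENCODE vM21 transcripts (GRCm38), which give all 37 genes the coordinates of the files. Other nuclear sequence was not searched. The fit was tested on simulated data, and figures were drawn with matplotlib 3.10.9 in Python 3.11.15.

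Alternatives were DESeq2 1.42.0 with its size factors, library size alone, scaling without mitochondrial genes, no filter, the 2 compared groups alone, the replicate number as a block, a term marking the 4 libraries where silent families exceed 0.5 reads per kb, each library left out and, for shares, another denominator and the nuclear copies added. The members and lists were chosen with earlier results of these data known. Genes were named by rule: all mRNA and rRNA genes, the 5 tRNA genes of highest mean CPM and the 3 of smallest p in compressed against day-5 cells, Polrmt, Tfam, Tfb2m, Lrpprc, Slirp and Ppargc1a with 3 abundant and 3 smallest-p others of their list, and the 3 nuclear subunits of smallest p.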

Additional observations from a re-analysis of the deposited data

How the results depend on the processing

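The low counts of the tRNA genes and of the 6 low mRNA genes limit their comparisons, and the spread between the 3 day-5 libraries limits every comparison with them. With 1 of 3 libraries left out a mean cannot move by 1 SD, so that says nothing of its stability. The mean mitochondrial share of day-5 cells ran from 0.77% to 3.41% and was lowest without replicate 1, that of fresh cells from 0.645% to 0.972%, of day-2 cells from 0.0772% to 0.124% and of compressed cells from 0.297% to 0.452%. With another denominator or with the nuclear copies added, the 4 means of that share moved by less than 1 SD. Mitochondrial calls kept their number within 1.5 times and their direction except as follows. With the replicate number as a block, calls went to 0 in compressed against day-5 and against day-2 cells, to 5 in day-2 against fresh cells and to 0 in day-5 against fresh cells, and stayed at 9 in day-5 against day-2 cells. Same-numbered pairs from different groups had correlations of -0.42 to 0.032, and others of -0.44 to 0.48. With 6 same-numbered pairs this cannot decide whether the numbers pair libraries. The study states that sorted cells of a batch were allotted at random to the conditions, but not which libraries share a batch. With the silent-family term 2 were called in compressed against day-5 cells, 2 in day-5 against day-2 cells and 0 in day-5 against fresh cells. In compressed against fresh cells 2 were called lower by DESeq2, by library size alone and without a filter, and 1 with the 2 groups alone. In day-5 against fresh cells these were 0 by library size alone, 3 without a filter and 0 with the 2 groups alone. The cause of these differences was not tested.

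With 1 library left out, calls ran from 2 to 7 in compressed against day-5 cells, 5 to 9 in compressed against day-2 cells, 0 to 2 in compressed against fresh cells, 6 to 10 in day-5 against day-2 cells, 8 to 10 in day-2 against fresh cells and 0 to 3 in day-5 against fresh cells, where the 1 call without replicate 1 of the day-5 cells was lower. Log2 fold changes that changed sign, none of them called before, ran as follows. In compressed against day-5 cells mt-Co1 ran from -1.84 to 0.16, mt-Nd4 from -1.45 to 0.65, mt-Nd5 from -2.29 to 0.88 and mt-Nd6 from -1.71 to 0.76. In compressed against fresh cells mt-Nd1 ran from -0.62 to 0.17, mt-Nd4 from -0.75 to 0.10, mt-Nd6 from -0.21 to 0.37 and mt-Cytb from -0.45 to 0.20. There the block gave 0.077 for mt-Nd1 and 0.038 for mt-Cytb, the silent-family term 0.040 for mt-Cytb, and mt-Nd6 was at -0.066 by DESeq2 and -0.28 by library size alone. In day-5 against fresh cells mt-Nd2 ran from -0.55 to 1.73, mt-Co1 from -0.70 to 1.29, mt-Nd4 from -0.96 to 1.14, mt-Nd5 from -1.63 to 1.54 and mt-Nd6 from -0.63 to 1.84.

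The alternatives for the nuclear lists were chosen after seeing the data. With 1 library left out, called subunit genes ran from 42 to 68 in compressed against day-5 cells, 4 to 35 in compressed against day-2 cells, 0 to 3 in compressed against fresh cells (1 higher and 0 lower without replicate 6 of the day-5 cells, 2 higher and 1 lower without replicate 4 of the compressed cells), 1 to 17 in day-5 against day-2 cells and 10 to 60 in day-2 against fresh cells. Called expression genes ran from 11 to 20 in compressed against day-2 cells, 1 to 10 in compressed against fresh cells (6 higher and 4 lower without replicate 1 of the fresh cells), 0 to 2 in day-5 against day-2 cells, 13 to 32 in day-2 against fresh cells and 8 to 26 in day-5 against fresh cells. By library size alone, 56 subunit genes were called in compressed against day-2 cells and 1 in day-5 against day-2 cells, and 3 expression genes in compressed against fresh and 12 in day-5 against fresh cells. That scaling moved the median log2 fold change of all genes from -0.76 to -1.24 in compressed against fresh cells, from 1.13 to 0.65 in day-5 against day-2 cells, and from -0.41 to -0.70 in day-5 against fresh cells.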
